A study of Mus musculus with 19 samples.

Results

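The binding of 2 subunits of Polycomb repressive complex 1 (PRC1), Cbx7 and Ring1B, was compared at gene starts in control mouse embryonic stem cells (ESC). A gene carried a protein when its transcription start site (TSS) lay within 2 kb of a peak of that protein's list. Of the 24016 genes of the deposited RNA table, 4268 carried at least 1 of the proteins. Cbx7 and Ring1B were both present at 851 genes, Cbx7 only at 2323 and Ring1B only at 1094, and 19748 genes carried neither.

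PRC1 is a histone-modifying complex that helps to keep developmental genes silent. Ring1B is its main catalytic subunit in ESC, which attaches ubiquitin to histone H2A and occurs in several forms of the complex. Cbx7 is a chromobox protein of canonical PRC1, which reads the methylated lysine 27 of histone H3 laid down by Polycomb repressive complex 2 (PRC2). Variant forms of PRC1 hold Ring1B with Rybp or Yaf2 in place of a chromobox protein, so Ring1B can sit on chromatin without Cbx7. Cbx7 is the main chromobox protein of PRC1 in mouse ESC.

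The Cbx7 and Ring1B libraries came from E14 ESC, a mouse line grown here on irradiated embryonic fibroblasts with LIF, which had been transduced with lentivirus for a non-target hairpin (shCtrl) and selected with puromycin. The RNA values used were those of 2 neural progenitor (NeuP) libraries and 1 library of the same shCtrl ESC. NeuP were derived through embryoid bodies and Noggin and grown with FGF2 and EGF, carried no hairpin per the labels, and no line was named for them. The other Ring1B lists came from NeuP and from ESC with hairpin #2 or #4 against Nup153, a nucleoporin, and the other lists from Oct4 ChIP in shCtrl ESC and from DamID in E14 ESC without a hairpin. In DamID a bacterial methylase tied to a protein, here Nup153 or Oct4, marks the DNA it comes close to.

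Each protein had 1 library and 1 peak list, so no comparison of Cbx7 with Ring1B has a replicate error. The Cbx7 library held 22.5 M tags and the Ring1B library 4.99 M. A peak needed 14 tags in the Cbx7 list and 7 in the Ring1B list. Intervals in brackets beside a share are Wilson 95% intervals. They hold counting error alone, and genes that share a peak are not independent. Peak lists stated no height, so only position and width could be used. In both lists chromosomes 12, 8 and 6 had the most peaks for their number of genes. Chromosome 8 had 974 Cbx7 and 945 Ring1B peaks for 1144 genes, against 422 Ring1B peaks in NeuP, and the RNA shares are also given without these 3 chromosomes.

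The cells were checked by their markers. Of 6 ESC markers, 5 were lower and Sox2 was not called in NeuP, and of 6 NeuP markers 5 were higher and Sox1 was not called. Pou5f1, which encodes Oct4, had 1.99 and 1.65 FPKM in NeuP, against 543 FPKM in control ESC. Fabp7, a fatty acid binding protein of neural progenitors, had 2454 and 3143 FPKM in NeuP and was listed at 0 in control ESC. The astrocyte markers summed to 263 and 31.9 FPKM in NeuP, against 14.9 FPKM in control ESC. Aldh1l1 gave nearly all of the control ESC sum and was lower in NeuP, at 6.53 and 5.16 FPKM. Gfap, Aqp4 and S100b were above control ESC in both NeuP libraries, with Gfap at 173 and 0.563 FPKM. The feeder fibroblast markers summed to 35.2 and 76.5 FPKM in NeuP, against 5.96 FPKM in control ESC, but did not move together. Col3a1, at 24.9 and 46.1 FPKM in NeuP against 0.036 FPKM, made up most of the NeuP sums. Postn and Thy1 were also above control ESC in both NeuP libraries, while Col1a1, Col1a2 and Lox were below it in both. The 4 neuron markers summed to 19.4 and 13.8 FPKM in NeuP, against 8.42 FPKM in control ESC. Other cells in the cultures cannot be told apart from more RNA per cell in such bulk libraries, and their part in the results below was not tested.

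In control ESC the Cbx7 list held more broad peaks than the Ring1B list, and in both lists more than 50% of the peaks had the same short width. The Cbx7 list held 12454 peaks that covered 13.7 Mb, and the Ring1B list 11916 peaks that covered 7.93 Mb. The most common width, 501 bp, was that of 55.3% of Cbx7 peaks and 58.2% of Ring1B peaks. The longest peak was 36505 bp for Cbx7 and 7434 bp for Ring1B, and 322 Cbx7 peaks but 4 Ring1B peaks were longer than 5 kb. The Ring1B list of hairpin #2 ESC, from 30.8 M tags, held 286 peaks over 5 kb and its longest was 58287 bp, whereas those of hairpin #4 ESC (9.95 M tags) and NeuP (33.2 M tags) held 15 and 12 such peaks. Ring1B lists thus differed widely in broad peaks, and the part of depth in this was not tested. A TSS lay within 2 kb of 27.3% of Cbx7 peaks (26.5 to 28.0%) and of 16.1% of Ring1B peaks (15.4 to 16.7%).

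**Figure D1:**
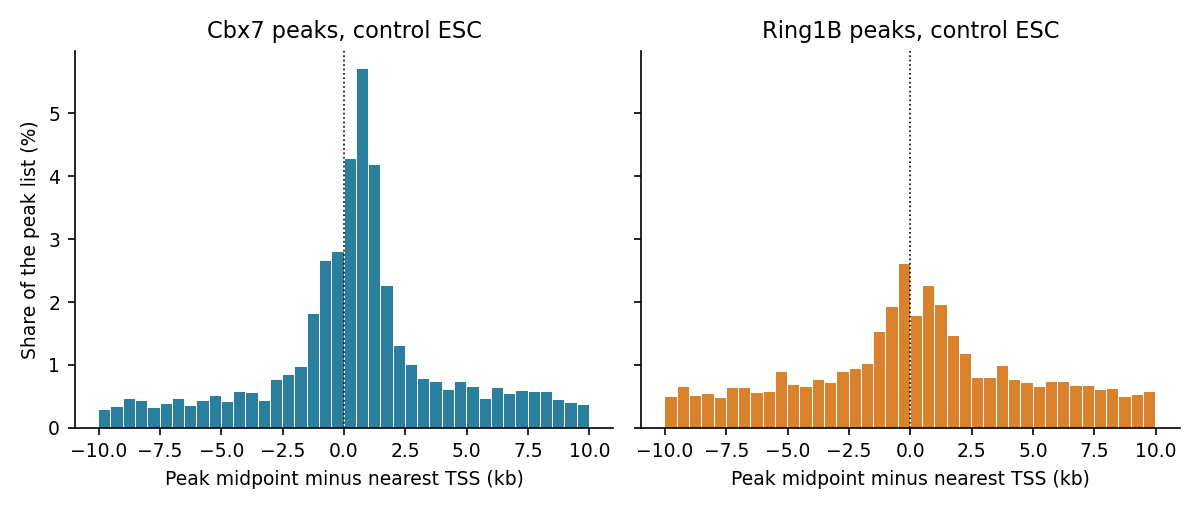
Share of each peak list (y, percent) by the distance of the peak's midpoint from the nearest TSS in the direction of transcription (x, kb, in bins of 500 bp), for Cbx7 on the left and Ring1B on the right, 1 list each. The highest Cbx7 bin, 5.71% of its list, lay downstream of the TSS between 500 and 1000 bp, and the highest Ring1B bin, 2.60% of its list, lay within 500 bp upstream.

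A minority of the peaks of each protein met the other. Of the Cbx7 peaks 22.2% (21.5 to 23.0%) shared at least 1 bp with a Ring1B peak, and of the Ring1B peaks 26.1% (25.3 to 26.9%) did so with a Cbx7 peak. The shared bases came to 2.08 Mb, which was 15.2% of the bases under Cbx7 and 26.2% of those under Ring1B. The widest peaks met the other list most often. Of Cbx7 peaks over 5 kb 85.4% (81.1 to 88.8%) met Ring1B, against 13.3% (12.6 to 14.2%) of those at the width of 501 bp. The shares in between did not rise steadily, with 34.7% from 501 bp to 1 kb, 16.8% between 1 and 2 kb and 34.4% between 2 and 5 kb. Of Ring1B peaks between 2 and 5 kb 79.1% (71.6 to 85.1%) met Cbx7, against 17.6% (16.7 to 18.5%) at the width of 501 bp. Near a TSS 22.3% of Cbx7 peaks and 43.4% of Ring1B peaks met the other list. A wider peak has more bases in which to meet another, and that part was not tested.

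The 10 broadest Cbx7 domains lay over developmental transcription factor genes, apart from 1 with no TSS of the table. The widest, at chr6:52154624-52191128 (mm9) in the HoxA cluster, ran from just upstream of the Hoxa5 TSS to Hoxa10. It held 9 Ring1B peaks that covered 55.3% of it. The TSS of Hoxa3 used here lay inside it, between those of Hoxa6 and Hoxa7. The second lay over Hoxb5 to Hoxb8, 27184 bp with 4 Ring1B peaks. Pax2, a paired box factor of kidney, eye and midbrain, had a domain of 23403 bp, and Nkx2-1, a factor of forebrain and thyroid, one of 21263 bp. Uncx had 20985 bp, the Dlx1 and Dlx2 pair 20649 bp, Six3 20472 bp, Pax6 19501 bp and Gata3, a zinc finger factor, 19236 bp. The domain without a gene lay at chr6:51118065-51137700 (mm9) and was 19636 bp long. Of the 322 domains over 5 kb, 275 held Ring1B, with a median of 2 Ring1B peaks. The median share of such a domain under Ring1B was 90.7% with the list of hairpin #2 ESC (30.8 M tags), against 19.2% with that of control ESC. The 2 libraries differed in depth as well as in hairpin, so depth and hairpin cannot be told apart in this difference.

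The HoxA, HoxC and HoxD clusters carried Cbx7 over most of their length, and the share under Ring1B depended on the Ring1B list. Between its first and last TSS the HoxA cluster was under Cbx7 for 78.0% and under Ring1B for 31.7%. HoxD was under Cbx7 for 74.1% and under Ring1B for 8.15%, HoxC for 66.0% and 8.23%, and HoxB, which holds the long gap to Hoxb13, for 40.3% and 4.89%. With the deeper Ring1B list of hairpin #2 ESC the shares under Ring1B were 77.6% for HoxA, 76.8% for HoxD, 74.8% for HoxC and 48.7% for HoxB, so they lay near or above those under Cbx7. Of 39 HOX genes, 25 had both proteins, 13 had Cbx7 only, 0 had Ring1B only, and Hoxc13 had neither. All 39 had Ring1B in the list of hairpin #2.

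Lists of developmental transcription factors held many genes with both proteins, and PAX and GATA genes had both or neither. The lists of gene families were chosen with earlier results of these data known, and their counts are descriptions beside the share over the whole table, where 3.54% of genes had both, 9.67% Cbx7 only and 4.56% Ring1B only. Of 9 PAX genes 8 had both proteins and 1 had neither, and of 6 GATA genes 5 had both and 1 had neither. Of 108 further developmental homeobox genes, 68 had both, 30 had Cbx7 only and 2, Cdx1 and Hhex, had Ring1B only. The median width of the Cbx7 peak was 15607 bp at PAX genes and 12836 bp at GATA genes, against 1253 bp over all genes with Cbx7. Of 19 SOX genes 9 had both and 5 had Cbx7 only, and of 17 T-box genes 7 and 4. Forkhead genes were more divided, with 15 of 44 in both, 7 with Cbx7 only and 19 with neither.

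The lists of bHLH factors, signalling genes and genes of nerve cells held more genes with Cbx7 only than with both. So did the whole table, with 9.67% and 3.54% of genes, and both shares were higher in each of the 6 lists given here. Of 54 developmental bHLH genes, 22 had Cbx7 only and 16 had both. Of 19 WNT ligands 9 had Cbx7 only, among them Wnt1, Wnt5a and Wnt3a, and 7 had both. Among the 10 Frizzled receptors, which bind WNT ligands, 5 had Cbx7 only and 1, Fzd2, had both. Of 14 Hedgehog pathway genes 7 had Cbx7 only, the ligands Shh and Ihh, the transducer Smo, the effector Gli3 and the surface proteins Boc, Gas1 and Hhip, and the ligand Dhh had both. Of 46 glutamate and GABA receptor genes 19 had Cbx7 only and 3 had both, and of 40 voltage-gated potassium channel genes 17 and 5. The Cbx7 peaks at the glutamate and GABA receptor genes had a median width of 1314.5 bp, against 1253 bp over all genes with Cbx7. Most genes of these 6 lists had Ring1B in the deeper list of hairpin #2, for example 14 of the 19 WNT ligands.

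**Figure D2:**
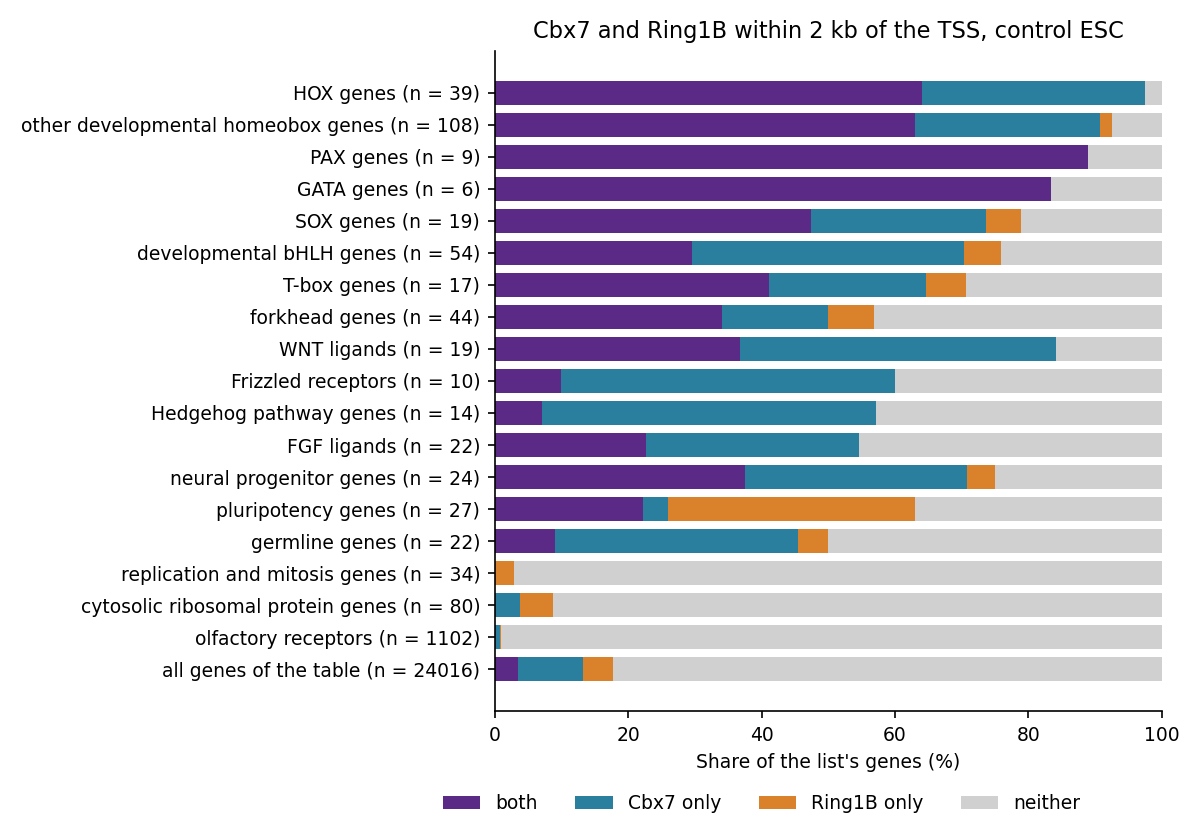
Share of the genes of each list (x, percent) with both proteins, Cbx7 only, Ring1B only or neither within 2 kb of the TSS in control ESC, with the number of genes in each list beside its name. The HOX, other homeobox, PAX and GATA lists are mostly in the class with both, the pluripotency list has the largest orange share, of Ring1B only, and the ribosomal protein, replication and olfactory receptor lists are mostly without either protein.

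Of the 31 lists the pluripotency genes had the largest share with Ring1B only. Of 27 genes of the pluripotent state 10 had Ring1B only, 6 had both, 1 had Cbx7 only and 10 had neither. Those with Ring1B only included Nanog, Dppa5a, Sall4, Tdgf1, Utf1, Mycn and Tbx3. Those with both were Pou5f1, Esrrb, Fbxo15, Tfcp2l1, Dppa2 and Dppa3, and their Cbx7 peaks were between 501 and 767 bp apart from 4051 bp at Esrrb, an orphan nuclear receptor of the naive state. The Cbx7 peak of Pou5f1, 501 bp long, ended at -1549 bp relative to the TSS, inside a Ring1B peak of 1193 bp, and a nearer Ring1B peak began at 498 bp. Sox2 had a Cbx7 peak of 501 bp and no Ring1B peak. Of 22 germline genes 8 had Cbx7 only, among them Dazl, Ddx4 and Mael, which act in germ cell development, and 2 had both.

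PRC1 genes were themselves among the members. Of 14 canonical subunits 8 had neither protein. Those with a protein included Cbx2 and Bmi1 with both, Cbx8 with Cbx7 only, and Cbx7 and Phc1 with Ring1B only. The gene Cbx7 had 2.07 and 1.84 FPKM in NeuP, against 38.1 FPKM in control ESC (adjusted p = 0.00251, limma). Bmi1, a Polycomb ring finger subunit, had 36.7 and 37.3 FPKM in NeuP, against 4.52 FPKM in control ESC (adjusted p = 0.00351, limma). Phc1 was called lower in NeuP, while Cbx2 and Cbx8 were not called. Of the 6 members 2 were higher and 2 lower, against 4 and 3 of all 14 subunits. Over all genes tested 18.3% were higher and 24.9% lower. Over all genes 82.2% had neither protein. Among housekeeping lists this held for 73 of 80 ribosomal protein genes, 75 of 82 respiratory chain genes, 33 of 34 replication and mitosis genes and 32 of 39 proteasome genes, the last (82.1%) at the share over all genes. Of 1102 olfactory receptor genes, 1101 of them under 1 FPKM in control ESC and both NeuP libraries, 1092 had neither.

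The width and place of the Cbx7 peak differed between the classes. At genes with both proteins the widest Cbx7 peak had a median width of 2890 bp (quartiles 1114.5 to 6057 bp), and at genes with Cbx7 only 992 bp (501 to 1995 bp). The widest Ring1B peak had a median of 645 bp at genes with both and 501 bp at genes with Ring1B only. Cbx7 lay over the TSS itself at 55.6% of genes with both and at 35.7% of genes with Cbx7 only. Ring1B lay over the TSS at 18.0% of genes with both and at 17.2% of genes with Ring1B only. At 46.7% of genes with Ring1B only the peak was upstream and at 36.1% downstream, with a median distance of 770 bp when it was off the TSS. At 780 of the 851 genes with both (91.7%), a Cbx7 peak and a Ring1B peak shared bases. Genes with Cbx7 only had longer spans, with a median of 26.5 kb, against 13.8 kb over all genes.

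The class of Cbx7 only rests on the window at the TSS and did not always lack Ring1B further along. For 67 of its 2323 genes (2.88%), the Cbx7 peak at the TSS met a control Ring1B peak outside the window, and among its 78 genes with a Cbx7 peak over 5 kb this was so for 42 (53.8%, 42.9 to 64.5%). Six3 is such a gene, with 6 Ring1B peaks in its domain and none within 2 kb of its TSS. The window itself cut through a gradual decline. Cbx7 lay between 1.5 and 2 kb of 157 gene starts and between 2 and 2.5 kb of 152, of which 47.1% and 59.9% had at least 1 FPKM in control ESC. Ring1B lay between 1.5 and 2 kb of 237 gene starts and between 2 and 2.5 kb of 173, of which 59.9% and 63.6% had at least 1 FPKM.

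Promoter sequences of 3 genes, 1 from each class, are shown because each is the first of its class by peak width for which the RefSeq promoter table has an entry. They run from 250 bases before to 50 bases after the start that RefSeq gives in GRCm38.p6, which may be another start than that of the deposited mm9 table. Capitals mark each CpG, the dinucleotide whose density marks CpG islands, at which Polycomb proteins are found in mammals.
Hoxa3, both, chr6:52213018-52213317, minus strand: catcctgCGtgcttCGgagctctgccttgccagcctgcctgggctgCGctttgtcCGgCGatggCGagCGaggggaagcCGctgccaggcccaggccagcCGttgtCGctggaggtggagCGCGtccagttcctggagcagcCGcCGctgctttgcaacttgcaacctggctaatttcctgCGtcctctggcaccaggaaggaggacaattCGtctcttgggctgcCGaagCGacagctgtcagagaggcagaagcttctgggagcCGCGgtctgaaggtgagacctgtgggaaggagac
Six3, Cbx7 only, chr17:85620584-85620883, plus strand: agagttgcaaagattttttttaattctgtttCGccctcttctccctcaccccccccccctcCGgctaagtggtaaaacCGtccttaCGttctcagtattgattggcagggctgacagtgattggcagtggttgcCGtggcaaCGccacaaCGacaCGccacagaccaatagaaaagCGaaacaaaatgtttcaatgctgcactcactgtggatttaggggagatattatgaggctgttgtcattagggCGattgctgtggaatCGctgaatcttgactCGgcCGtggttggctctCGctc
Phc1, Ring1B only, chr6:122340178-122340477, minus strand: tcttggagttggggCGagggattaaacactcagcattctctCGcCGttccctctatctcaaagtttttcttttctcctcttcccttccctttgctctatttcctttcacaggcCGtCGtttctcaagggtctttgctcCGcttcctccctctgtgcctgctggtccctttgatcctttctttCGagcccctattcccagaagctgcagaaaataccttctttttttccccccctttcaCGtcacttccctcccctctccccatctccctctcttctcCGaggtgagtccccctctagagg
The Hoxa3 promoter held 20 CpG in its 300 bases, a count reached by 26.5% of all 32851 promoters of the table. Six3 held 14, reached by 36.3%, and Phc1 held 9, reached by 45.8%. The median over all promoters was 7. Too few members had a promoter in the table, 68.9% of genes with both, to compare CpG between the classes.

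Genes with Cbx7 were low in control ESC, with or without a peak of the control Ring1B list, while most genes with Ring1B only were expressed. Of genes with Cbx7 only 70.9% had Ring1B in either hairpin list. At least 1 FPKM was reached in control ESC by 33.3% of genes with both (30.2 to 36.5%), 33.1% of genes with Cbx7 only (31.3 to 35.1%) and 78.7% of genes with Ring1B only (76.2 to 81.0%), against 48.7% of all genes (48.0 to 49.3%). The median levels were 0.32, 0.28 and 10.3 FPKM in these classes, against 0.83 FPKM over all genes. In NeuP replicates 1 and 2 at least 1 FPKM was reached by 42.2% and 41.1% of genes with both, by 40.9% and 40.0% of genes with Cbx7 only and by 63.1% and 64.8% of genes with Ring1B only, against 46.2% and 46.6% of all genes. With chromosomes 6, 8 and 12 left out the control ESC shares were 31.6%, 32.0% and 79.0%.

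**Figure D3:**
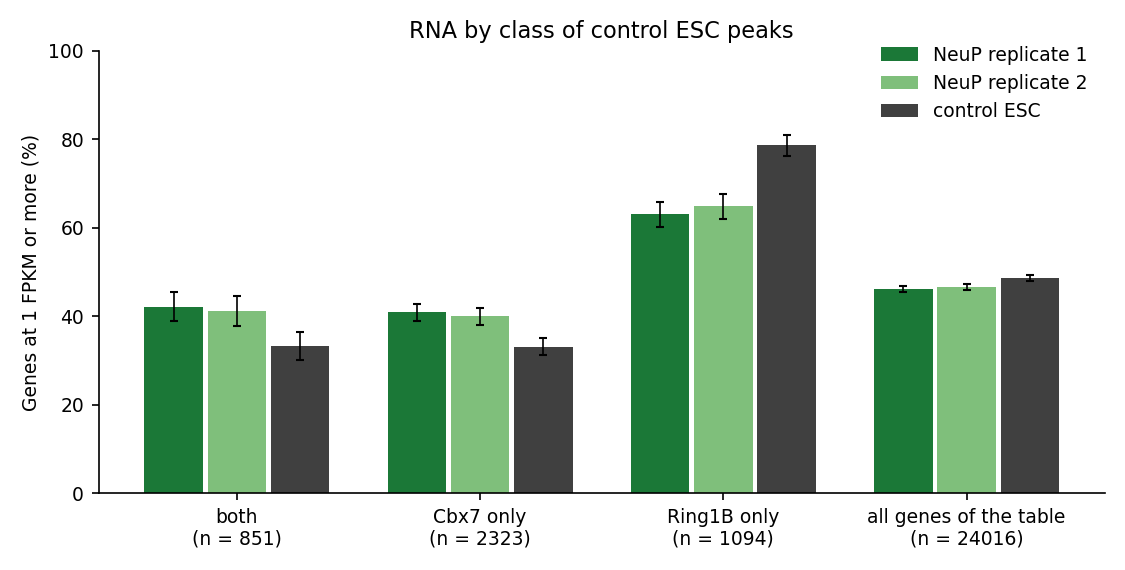
Share of genes with at least 1 FPKM (y, percent) in the 2 NeuP libraries and the 1 control ESC library, for the 3 classes of control ESC peaks and for all genes of the table, with Wilson 95% intervals as error bars. Genes with Cbx7, with or without a control Ring1B peak, lie lowest in control ESC and higher in both NeuP libraries. Genes with Ring1B only lie highest in control ESC and lower in both NeuP libraries.

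Within the genes with Cbx7, those under wider peaks had less RNA. Of the 256 genes with both proteins and a Cbx7 peak over 5 kb, 12.1% had at least 1 FPKM in control ESC. Of the 101 genes with both and a Cbx7 peak of 501 bp, 66.3% did. In the class of Cbx7 only the shares were 14.1% of 78 genes with a peak over 5 kb and 45.6% of 653 genes with a peak of 501 bp. Genes with both proteins and a short Cbx7 peak lay nearer to genes with Ring1B only than to the broad domains.

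Many silent genes with Cbx7 were transcribed in NeuP. Of genes under 1 FPKM in control ESC, 25.2% of those with both (143 of 568, 21.8 to 28.9%) and 23.2% of those with Cbx7 only (360 of 1553, 21.1 to 25.3%) had at least 1 FPKM in both NeuP libraries. For Ring1B only the share was 11.2% (26 of 233, 7.73 to 15.8%), for genes with neither 7.06% (6.57 to 7.58%), and over all genes 10.0% (1233 of 12331). The starting levels of these genes differed. Listed at 0 in control ESC were 115 of the 568 with both and 422 of the 1553 with Cbx7 only. So were 86 of the 233 with Ring1B only and 6242 of the 9977 with neither. The shares were not split by starting level, and its part in them was not tested. Set against all genes of the table, whatever their level in control ESC, this switch was made by 16.8% of genes with both, 15.5% with Cbx7 only and 2.38% with Ring1B only, with a background of 5.13%.

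The opposite switch was also frequent. Of genes at 1 FPKM or more in control ESC, 29.0% with both (24.0 to 34.5%), 27.8% with Cbx7 only (24.7 to 31.1%) and 19.9% with Ring1B only (17.3 to 22.7%) were under 1 FPKM in both NeuP libraries, against 12.5% of genes with neither (11.9 to 13.2%). Genes between 1 and 10 FPKM in control ESC gave 34.9%, 31.4% and 34.6% in the 3 classes, against 22.3% with neither. Of genes at 10 FPKM or more 16.5%, 16.8% and 11.7% did so, against 4.14% with neither. Over all genes of a class the switch was made by 9.64% with both, 9.21% with Cbx7 only and 15.6% with Ring1B only, with a background of 7.05%. The 3 classes lay above genes with neither at both levels, and their intervals overlapped one another at each level.

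The fit across all genes gave calls in both directions. Limma on log2(FPKM + 1) was run for the 13750 genes with at least 1 FPKM in some library, with an adjusted p under 0.05 as the call. Of these 18.3% were higher and 24.9% lower in NeuP. The filter passed 488 of 851 genes with both, of which 198 were higher and 115 lower. It passed 1298 of 2323 genes with Cbx7 only, of which 480 were higher and 289 lower, and 910 of 1094 genes with Ring1B only, of which 96 were higher and 358 lower. The median log2 changes of those tested were 0.81, 0.75 and -0.82, against -0.26 over all genes tested. A silent gene passes the filter only by being expressed elsewhere, so these counts and medians are descriptions. With no filter on low values the balance changed, to 152 higher and 152 lower with both and 353 higher and 400 lower with Cbx7 only. The spread in this fit came in part from the 2 Nup153 knockdown libraries. Without either knockdown library 54 or 55 genes with both, 96 with Cbx7 only and 7 or 8 with Ring1B only were called higher, and without either NeuP library 202 or 203 genes with Ring1B only were. With the 3 NeuP and control libraries alone the calls were 43 higher and 74 lower for both, 66 and 180 for Cbx7 only and 3 and 166 for Ring1B only, against 228 and 1413 over all genes.

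Among genes with both proteins the largest rises were those of Olig2, Sparcl1, Olig1 and Pantr1. Olig2, a bHLH factor of oligodendrocyte and motor neuron precursors, had 201 and 265 FPKM in NeuP, against 0.016 FPKM in control ESC (log2 change 7.84 ± 0.27 SE, adjusted p = 0.00238, limma). Its Cbx7 domain was 14866 bp long and its Ring1B peak 2301 bp. Olig1, its neighbour with a Cbx7 peak of 4055 bp, had 288 and 139.9 FPKM in NeuP, against 0.036 FPKM in control ESC. Both NeuP libraries were far above control ESC for this pair. Sparcl1, a secreted matrix protein of glia, had 462 and 100.5 FPKM in NeuP, against 0.025 FPKM in control ESC (log2 change 7.72 ± 1.01 SE, adjusted p = 0.0108). Pantr1, a noncoding RNA beside Pou3f3, had 119.6 and 134.9 FPKM in NeuP and was listed at 0 in control ESC. Pou3f3, a POU factor of the neural lineage under the same 4864 bp Cbx7 peak, had 25.6 and 30.1 FPKM in NeuP, against 0.167 FPKM in control ESC.

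The largest falls of this class were those of Fbxo15, Pou5f1, Slc38a4 and Esrrb, with Cbx7 peaks of 640, 501, 501 and 4051 bp. Fbxo15, an F-box gene and marker of ESC, had 0.277 and 0.183 FPKM in NeuP, against 248 FPKM in control ESC (log2 change -7.66 ± 0.19 SE, adjusted p = 0.00238, limma). Pou5f1, given above, changed by -7.59 ± 0.21 SE. Slc38a4, an amino acid transporter, had 0.048 and 0.326 FPKM in NeuP, against 120.4 FPKM in control ESC, and Esrrb had 0.126 and 0.570 FPKM, against 119.3 FPKM. All 4 had a Ring1B peak in the list of hairpin #2. The genes of this class with the most RNA in control ESC were Pou5f1, Cox5a, a cytochrome oxidase subunit, with 55.6 and 112 FPKM in NeuP against 331 FPKM in control ESC, and Pttg1, a securin, with 1.87 and 73.1 FPKM in NeuP against 269 FPKM. The NeuP libraries differed widely for Pttg1, which was not called (adjusted p = 0.184).

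The HoxA genes at the widest domain did not move together. Hoxa3 had 9.18 and 5.41 FPKM in NeuP, against 0.684 FPKM in control ESC (adjusted p = 0.0148, limma), and Hoxa5 had 7.16 and 5.68 FPKM, against 1.26 FPKM (adjusted p = 0.0127). Hoxa2, in the next domain of 19174 bp, had 23.1 and 20.8 FPKM in NeuP, against 0.245 FPKM in control ESC. Hoxa6, Hoxa7, Hoxa9 and Hoxa10 stayed under 1 FPKM in all 3 libraries. Of the 38 HOX members, 29 were under 1 FPKM in control ESC and both NeuP libraries, and 4, Hoxa2, Hoxa3, Hoxb2 and Hoxb3, reached 1 FPKM only in NeuP.

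Other families of transcription factors, mostly with both proteins, were called in part, with 18.3% higher and 24.9% lower over all genes tested. Of the 8 PAX members, 4 of them tested, Pax6, an eye and forebrain factor, and Pax3, a dorsal neural factor, were higher in NeuP. Pax3 had 11.4 and 13.6 FPKM in NeuP, against 0.01 FPKM in control ESC. Of the 5 GATA members 4 were tested and all 4 were lower, against 5 of 5 tested in the whole list. Gata4, a factor of endoderm and heart, had 0 and 0.012 FPKM in NeuP, against 6.95 FPKM in control ESC, and Gata6 had 0.01 and 0.013 FPKM, against 4.83 FPKM. Of the 100 further homeobox members of any class, 81 were under 1 FPKM throughout and 21 were tested. Of those tested 7 were called higher, among them En1, En2 and Prrx1, and 11 lower, among them Otx2 and Esx1. In the whole list 8 were higher and 14 lower of 27 tested. Prrx1, a mesenchymal factor also in the fibroblast list, had 16.6 and 16.8 FPKM in NeuP, against 0.016 FPKM in control ESC.

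Among genes with Cbx7 only the largest rises were those of Ptn, Gpm6b, Ptprz1 and Lrrn1. Ptn, the secreted growth factor pleiotrophin, had 404 and 422 FPKM in NeuP, against 0.02 FPKM in control ESC (log2 change 8.66 ± 0.29 SE, adjusted p = 0.00238, limma). Ptprz1, a receptor phosphatase that binds pleiotrophin, had 286 and 379.9 FPKM in NeuP, against 0.069 FPKM in control ESC. Gpm6b, a membrane proteolipid, had 397 and 314 FPKM in NeuP, against 0.013 FPKM, and Lrrn1, a leucine-rich repeat protein, had 318 and 211 FPKM, against 0.147 FPKM. Their Cbx7 peaks were short, between 501 bp at Ptn and 943 bp at Lrrn1. Ptn had no Ring1B peak in the list of hairpin #2 either, whereas the other 3 did, and Ptn, Gpm6b and Lrrn1 had one in the NeuP list. Of the 18 members of the neural progenitor list of any class, 9 had both proteins, 8 Cbx7 only and 1 Ring1B only. Of these 18, 16 were called higher and 0 lower, with Hes5 and Sox1 not called. In the whole list 21 of 24 genes were higher, against 18.3% over all genes tested.

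The largest falls with Cbx7 only were those of Dazl, Krt18, Perp and Pmaip1. Dazl, an RNA-binding protein of germ cells, had 0.043 FPKM in each NeuP library, against 180.1 FPKM in control ESC (log2 change -7.44 ± 0.21 SE, adjusted p = 0.00238, limma), and its Cbx7 peak of 1098 bp ended at -806 bp relative to the TSS. Krt18, a keratin of simple epithelia, had 0 and 0.03 FPKM in NeuP, against 75.7 FPKM in control ESC. Perp and Pmaip1, both targets of p53, had at most 0.109 and 1.23 FPKM in NeuP, against 45.2 and 57.0 FPKM in control ESC. The other genes with the most RNA in control ESC were Mt2, a metallothionein, with 426 and 5.46 FPKM in NeuP against 670.2 FPKM in control ESC, which was not called, and Rpl7 with 144 and 160.4 FPKM against 293 FPKM. The widest Cbx7 peaks of the class lay at Hoxa10, Hoxb7, the noncoding E030019B13Rik beside Nkx2-1, and Six3, all under 1 FPKM in the 3 libraries.

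Signalling lists did not share a direction. The background over all genes tested was 18.3% higher and 24.9% lower. Of the 6 Frizzled members 5 were higher and 0 lower, against 6 and 3 of the 10 genes of the whole list. Fzd3 had 36.8 and 21.9 FPKM in NeuP, against 1.47 FPKM in control ESC. Of the 8 Hedgehog members 5 were tested and 4 were higher, Boc, Gli3, Smo and Gas1, against 5 higher and 3 lower of 11 tested in the whole list. Of 13 BMP and GDF ligand members tested 3 were higher and 6 lower, of 4 FGF ligand members 1 and 2, of 5 WNT ligand members 2 and 1, and of 7 ephrin and Eph receptor members 3 and 2. Gas1, a co-receptor of Shh, had 39.2 and 51.5 FPKM in NeuP, against 1.40 FPKM in control ESC, while Shh stayed at 0.047 and 0.077 FPKM in NeuP and was listed at 0 in control ESC. Of the 26 members among the clustered protocadherins 25 were higher, against 52 of 56 tested in the whole family. The gamma protocadherins share their last exons, and their FPKM values were nearly equal, so their RNA cannot be assigned to single genes. Wnt5a, under a Cbx7 peak of 11042 bp, had 15.9 and 10.8 FPKM in NeuP, against 0.074 FPKM in control ESC.

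**Figure D4:**
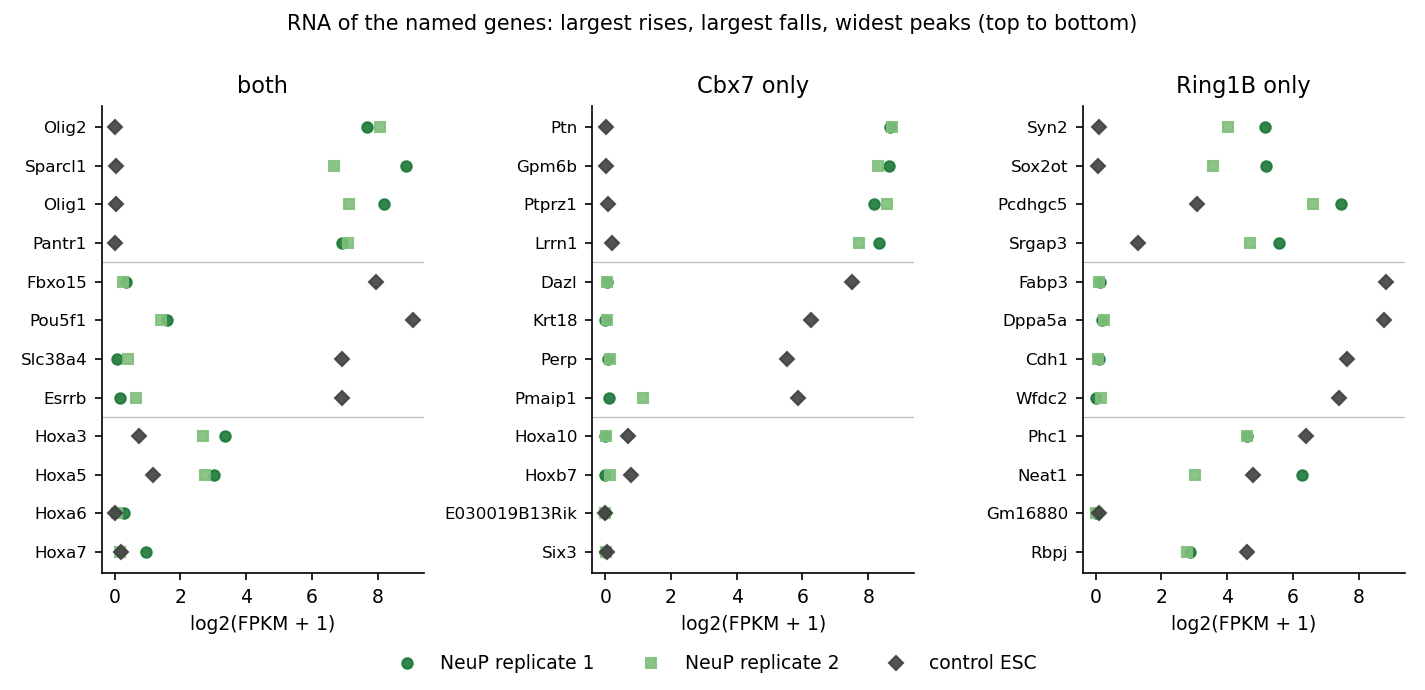
RNA level as log2(FPKM + 1) (x) of the 4 largest rises, 4 largest falls and 4 genes with the widest peak in each class (y, from top to bottom), with 1 point for each of the 2 NeuP libraries and for the 1 control ESC library. The rises with Cbx7 start near 0 in control ESC, those with Ring1B only are smaller, and most genes with the widest Cbx7 peaks stay near 0 in all 3 libraries.

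Among genes with Ring1B only the falls exceeded the rises in size and number. Fabp3, a fatty acid binding protein, had 0.098 and 0.065 FPKM in NeuP, against 454 FPKM in control ESC (log2 change -8.72 ± 0.19 SE, adjusted p = 0.00238, limma). Dppa5a, an RNA-binding protein of ESC, had 0.147 and 0.195 FPKM in NeuP, against 432 FPKM in control ESC. Cdh1, the epithelial cadherin, had 0.071 and 0.056 FPKM, against 200.5 FPKM, and Wfdc2, a secreted protease inhibitor, had 0 and 0.117 FPKM, against 169 FPKM. Of the 4, Fabp3 and Dppa5a also lay within 2 kb of Nup153 DamID. Nanog, a homeobox factor of pluripotency with a Ring1B peak of 631 bp, had 0.532 and 0.870 FPKM in NeuP, against 245.7 FPKM in control ESC. Of the 17 members in the pluripotency list of any class, 16 were lower and Sox2 was not called, against 26 of all 27.

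The largest rises with Ring1B only were smaller. Syn2, a synaptic vesicle protein, had 34.2 and 15.3 FPKM in NeuP, against 0.062 FPKM in control ESC (log2 change 4.49 ± 0.52 SE, adjusted p = 0.00841, limma). Sox2ot, a noncoding RNA that spans Sox2, had 35.5 and 10.8 FPKM in NeuP, against 0.053 FPKM. Srgap3 had 46.3 and 25.1 FPKM, against 1.42 FPKM, and the fourth was Pcdhgc5, a gamma protocadherin. The widest Ring1B peaks of the class were at Phc1, 2524 bp, at the noncoding RNA Neat1, 2307 bp, at Gm16880 and at Rbpj, the DNA-binding effector of Notch, 2150 bp. Phc1, a PRC1 subunit, had 23.1 FPKM in each NeuP library, against 84.0 FPKM in control ESC, and Rbpj had 6.22 and 5.87 FPKM, against 23.0 FPKM. Neat1 had 76.4 and 7.04 FPKM in NeuP, against 26.6 FPKM, and was not called. The most RNA in control ESC was that of Hsp90ab1, a chaperone, at 599.7 and 871 FPKM in NeuP against 2310.0 FPKM in control ESC, of Rpl4 and of Txnip.

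The other peak lists, which the classes did not use, separated them too. Ring1B of hairpin #2 ESC lay within 2 kb of the TSS at 93.9% of genes with both (92.1 to 95.3%), 68.6% with Cbx7 only (66.7 to 70.5%) and 50.0% with Ring1B only (47.0 to 53.0%), against 14.3% with neither. Ring1B of hairpin #4 ESC, from 9.95 M tags, did so at 70.2%, 22.4% and 33.8%, against 3.71% with neither. All 78 genes with Cbx7 only and a Cbx7 peak over 5 kb had Ring1B in the list of hairpin #2, against 40.7% of those with a peak of 501 bp. The genes with Cbx7 only that had no Ring1B with hairpin #2 had a median of 0.28 FPKM in control ESC, and so did those that had it, at 0.27 FPKM. In NeuP Ring1B lay at 30.6% of genes with both, 14.6% with Cbx7 only and 19.8% with Ring1B only, against 8.56% with neither. The list of NeuP had 33.2 M tags and an ESC control library.

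Genes with both that carried Ring1B in NeuP were not silent there more often than the others. Of these 260 genes 50.0% (44.0 to 56.0%) and 46.5% (40.6 to 52.6%) had at least 1 FPKM in NeuP replicates 1 and 2 and 28.8% did in control ESC. Of the other 591 genes with both 38.7% (34.9 to 42.7%) did so in each NeuP library and 35.2% in control ESC.

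Genes with Ring1B only also stood out in DamID. Nup153 DamID lay within 2 kb of the TSS at 28.8% of them (26.2 to 31.5%), at 14.5% with both (12.3 to 17.0%) and at 4.65% with Cbx7 only (3.87 to 5.58%), against 4.42% with neither. Oct4 DamID did so at 17.3%, 6.46% and 1.59%, against 1.99% with neither, and Oct4 ChIP at 4.57%, 4.00% and 0.603%, against 0.395%. The order of the classes was the same for the 2 DamID lists, and 122 of the 315 genes with Ring1B only and Nup153 DamID also had Oct4 DamID. Of the 315 genes with Ring1B only and Nup153 DamID 83.5% (79.0 to 87.2%) had at least 1 FPKM in control ESC, and of the 873 genes with Nup153 DamID and neither protein 83.8% (81.3 to 86.1%). The files did not say how the DamID replicates and the GFP control were combined.

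**Figure D5:**
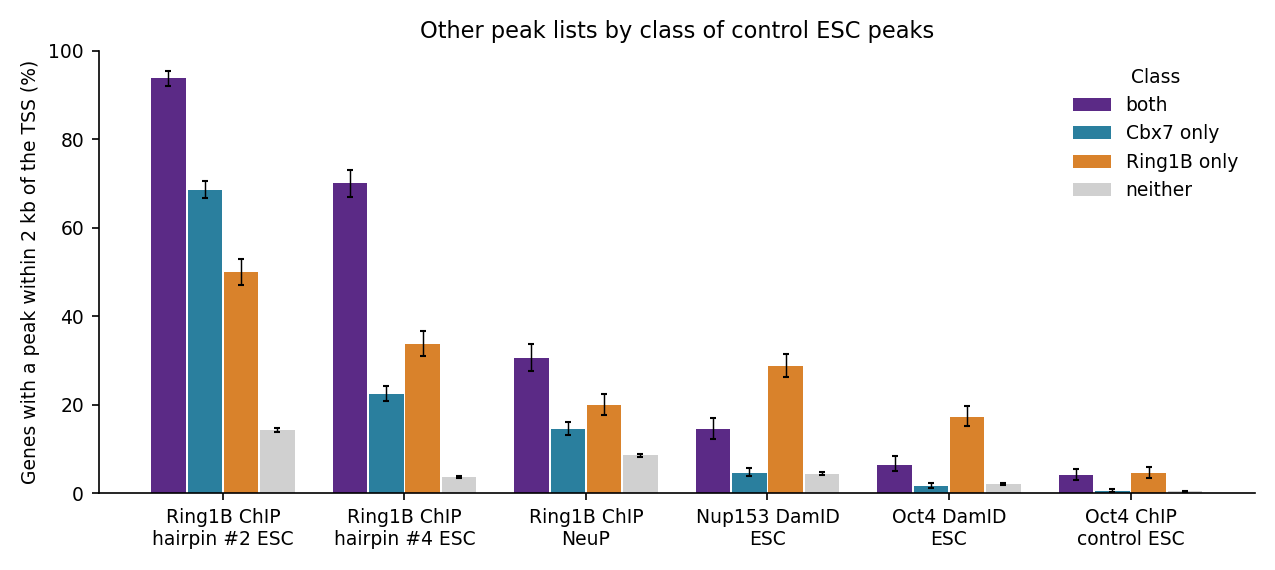
Share of genes with a peak of each other list within 2 kb of the TSS (y, percent) for genes with both proteins, Cbx7 only, Ring1B only and neither in control ESC, with Wilson 95% intervals. Genes with both have the most Ring1B in other samples, and genes with Ring1B only have the most Nup153 and Oct4 DamID.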

How the data were processed

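Peak lists and RNA values were used as deposited. Per the submitters' processing notes the reads were aligned to mm9 with Bowtie2 2.1.0 and STAR 2.2.0c, and HOMER 4.6 and edgeR were used. Cbx7 and Ring1B peaks were called by HOMER findPeaks in histone style per the file headers, against an ESC IgG library, which also served for NeuP. The only ChIP control among the samples is labelled input. The peak lists give positions only, and the score column is the same in every deposited row and was not used. RNA was deposited as FPKM for 24016 transcripts, from stranded polyA+ libraries per the labels. Low FPKM values printed with enough digits came out as whole reads within 0.1 of a read in 100% of cases, which put library depth at 24.3 to 32.2 M fragments.

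A gene was assigned to a class when its mm9 TSS lay within 2 kb of a peak edge, and peaks overlapped when they shared at least 1 bp. Changes between NeuP and control ESC were tested with limma 3.58.1 (limma-trend, two-sided, Benjamini-Hochberg over 13750 genes) on log2(FPKM + 1), for genes with at least 1 FPKM in some library. All 5 libraries entered 1 fit with 3 groups, in which the single control library was assumed to vary like the knockdown and NeuP libraries. The residual degrees of freedom were 2, to which moderation added 1.74. A fold change on this scale understates the change of low genes. The labels do not say that replicates were separate cultures, so p-values measure the spread between these samples only. The scripts were tested on simulated data with known answers.

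Named genes were, per class and leaving out genes that share a TSS with another symbol, the 4 largest rises, 4 largest falls, 4 widest peaks and 3 highest levels in control ESC, and members of 31 gene lists. Members, lists and rules were chosen with earlier results of these data known. Names of other genes in the text were picked from the lists after their values were seen. Alternatives changed the window, peak width, overlap, FPKM threshold, Ring1B list, pseudocount, filter, normalization and libraries. No sample column was left unused. Python 3.11.15 and R 4.3.3 were used.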

Additional observations from a re-analysis of the deposited data

How the results depend on the processing

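The sizes of the classes depended on the choices. Genes with Ring1B only had the highest share of genes past the FPKM threshold in every setting run, and the order of genes with both and Cbx7 only in control ESC turned round without chromosomes 6, 8 and 12, at 31.6% and 32.0%. With the TSS itself under the peak, 134 genes had both proteins, 1168 Cbx7 only and 207 Ring1B only. With peaks of at least 1 kb 201 had both and 89 Ring1B only, and within 5 kb 1729 had Ring1B only. With Ring1B of hairpin #2 in place of the control list the counts were 2393 both, 781 Cbx7 only and 3362 Ring1B only, and with Ring1B of any ESC sample 2498, 676 and 4291. The overlap was 15.4% of Cbx7 and 23.9% of Ring1B peaks when at least 50% of the peak had to be covered, 24.2% and 28.1% within 1 kb, and 9.80% and 29.7% for peaks of at least 1 kb. After merging peaks within 1 kb, 66.5% of genes with both and 32% with Cbx7 only had Cbx7 over 2 kb, and Ring1B over 2 kb was at 16% with both and 1.55% with Ring1B only.

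Of genes with both, Cbx7 only and Ring1B only, 44.1%, 42.1% and 65.5% had at least 0.5 FPKM in both NeuP libraries, against 47.5% of all genes, and 44.1%, 42.9% and 82.5% in control ESC, against 53.5%. At 5 FPKM the shares were 22.9%, 20.8% and 44.5% in NeuP, against 30.5%, and 17.9%, 14.2% and 62.4% in control ESC, against 34.5%. With the TSS under the peak the control ESC shares at 1 FPKM were 20.1%, 17.0% and 72.9%. With a window of 5 kb they were 40.4% with both and 35.4% with Cbx7 only, and with 1 kb 29.8% with Cbx7 only. With Ring1B of any ESC sample 67.8% of genes with Ring1B only had at least 1 FPKM in both NeuP libraries, a setting chosen after seeing the data. Leaving out chromosomes 6, 8 and 12 was also chosen after seeing the data, and it kept the control ESC and NeuP shares within their counting intervals.

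The counts of calls rested on the spread between libraries. Without the knockdown libraries 228 genes were higher and 1413 lower in NeuP over all genes, 43 and 74 with both, 66 and 180 with Cbx7 only, and 3 and 166 with Ring1B only. Leaving out 1 knockdown or NeuP library at a time gave 316 to 4565 higher and 1457 to 6658 lower over all genes, 54 to 271 and 80 to 169 with both, 96 to 693 and 188 to 423 with Cbx7 only, and 7 to 203 and 161 to 571 with Ring1B only. A lone library was then assumed to vary like the others, and the cause of the differences was not tested. Pseudocounts of 0.1 and 5, no filter, quantile normalization and voom on the recovered reads kept each count within 1.5 times. With no filter the balance of calls nonetheless changed, to 152 higher and 152 lower with both (198 and 115 with the filter) and 353 and 400 with Cbx7 only (480 and 289 with it). Quantile normalization moved the median of all genes tested from -0.26 to -0.06 on the log2 scale, and over all genes 2900 were then called higher and 2865 lower, against 2516 and 3420. No paired analysis was possible because control ESC had 1 RNA library without a replicate number. The planned comparison of promoter CpG between classes was void, since 74.5% of all genes and 68.9% of genes with both had a promoter sequence, under the 80% needed. The low depth of the Ring1B control library, 4.99 M tags, limits what absence from that list shows. What presence shows is limited too for genes with Ring1B only. Of these 60.1% had Ring1B in either hairpin list, against 95.7% with both and 16.2% with neither. Their widest Ring1B peak was 501 bp at 67.6%, against 42.1% with both. How many such peaks would recur in a deeper control library was not tested.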
